A study of Sus scrofa with 12 samples.

Results

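The Krüppel-like factors described here are 10 genes: KLF2, KLF3, KLF4, KLF5, KLF6, KLF7, KLF9, KLF10, KLF13 and KLF15. They were found by symbol among the 21153 genes of the deposited count table, and each symbol matched 1 Ensembl identifier. All 10 passed the filter on low counts and were among the 12444 genes tested. The samples were primary cultures of smooth muscle cells from pig coronary artery, labelled as differentiated and contractile, at passages 6 to 11. Control cells received neither protein, and the other groups received PDGF-BB at 30 ng/ml, S100A4 at 1 µg/ml or the same amounts of both, in each case for 4 h. All 4 groups, control included, were in medium with 10% fetal calf serum, and each had 3 libraries numbered 1 to 3. The series states that cells came from 3 animals, but no label ties a library to an animal, so every p-value rests on the variation among these libraries, some of which may be technical.

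Krüppel-like factors are transcription factors that bind GC-rich and CACCC sequences through zinc fingers at their C-terminal end, and they differ mainly in the part before the fingers. KLF2, KLF4, KLF5, KLF6 and KLF7 act largely as activators, although KLF4 also represses. KLF3 recruits the CtBP corepressors, and KLF9, KLF10 and KLF13 recruit SIN3A. In vascular smooth muscle KLF4 is known for repressing contractile genes and KLF5 for promoting growth, while KLF2 is best known from endothelium under flow. KLF9 and KLF15 are hormone-responsive genes, induced by glucocorticoids in many tissues. PDGF-BB, the B-chain homodimer of platelet-derived growth factor, is a mitogen for these cells, and S100A4 belongs to the S100 family of calcium-binding proteins and can signal when secreted.

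Library totals ran from 21455021 to 32448438 counts. Levels are given in counts per 1000000 (CPM), scaled by TMM, and differences as log2 fold changes ± SE from edgeR's quasi-likelihood test on groups alone. Libraries with the same replicate number varied together, so the fit with that number as a block is given where it changed a call. Replicate number 2 stood apart in its marker genes. The summed level of 7 smooth muscle markers was 7790 to 9220 CPM in its libraries, against 17300 to 21500 CPM in the other 8. That of 7 fibroblast markers was 1060 to 1220 CPM against 274 to 483 CPM. Most of the first sum was ACTA2 (15400, 6910 and 15900 CPM on average in numbers 1, 2 and 3). Most of the second was LUM (325, 721 and 208 CPM). SMTN differed less by number (339, 291 and 372 CPM). The fibroblast marker TCF21 went the other way, lowest in number 2 (20.6, 16 and 26.9 CPM), while the other fibroblast markers were highest there. Of the smooth muscle markers all 7 were detected, although TAGLN averaged only 5.42 CPM in control. Macrophage markers summed to 1.94 to 2.64 CPM, with PTPRC at 0 in every library, and epithelial markers to at most 0.199 CPM. In these bulk cultures, fewer cells of a type and less RNA per cell cannot be told apart.

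**Figure D1:**
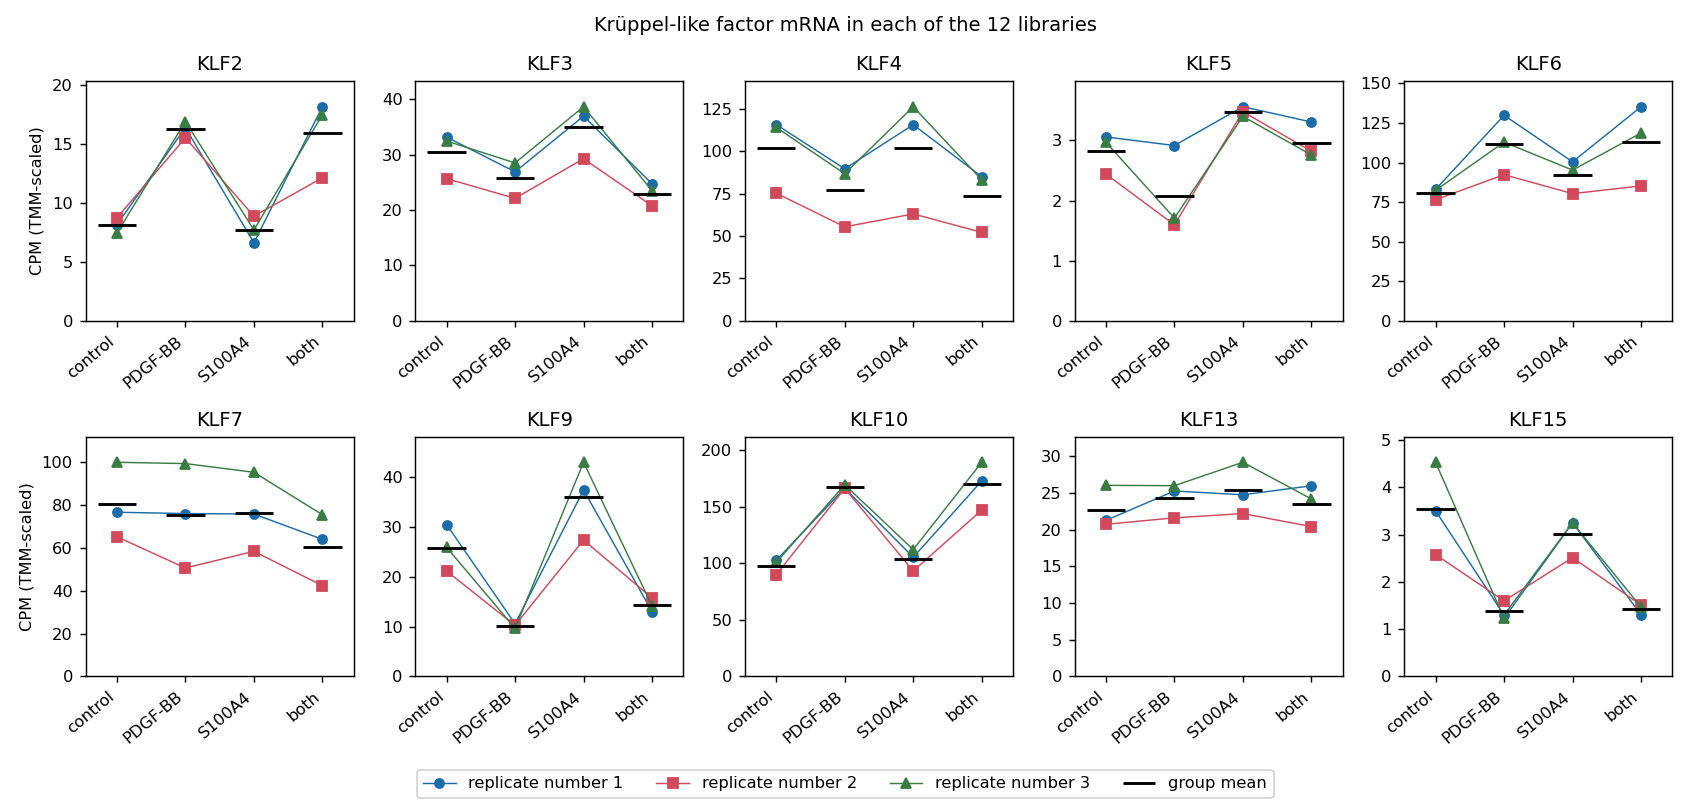
CPM (TMM-scaled, linear axes from 0) of the 10 members in the control, PDGF-BB, S100A4 and combined ("both") groups. Symbols and colours mark replicate numbers, thin lines join same-numbered libraries and black bars are group means of 3 libraries; KLF2 and KLF10 are higher and KLF9 and KLF15 lower in both groups with PDGF-BB, without overlap with the groups that lack it.

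PDGF-BB doubled KLF2 and raised KLF10, while it lowered KLF9 and KLF15 to well under their control levels. Thus 2 members rose, 2 fell and 6 did not pass, and 4 of 10 called compares with 14.7% of all tested genes (9.09% higher and 5.62% lower). Such comparisons of member counts with all genes are descriptions only, since the members were chosen with earlier results of these data known. Of all calls 61.8% were higher, and 49% with upper-quartile scaling, which called the same number of members in each direction. With the replicate block 3 rose and 5 fell, 8 of 10 against 48.8% of all genes (24.3% higher and 24.5% lower). Libraries of the groups did not overlap for 5 members, and for 29.8% of all genes. All 3 same-numbered pairs differed in 1 direction for 9 members and for 69.3% of all genes. The median log2 change of the members was −0.17, beside −0.02 over all genes.

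KLF2 (ENSSSCG00000038911, chromosome 2, 61270733 to 61273037) is the flow-responsive factor of endothelium. Its level was 8.17, 8.75 and 7.45 CPM in control replicates 1, 2 and 3, and 16.4, 15.5 and 16.9 CPM with PDGF-BB. Every PDGF-BB library lay above every control library, and all 3 lay close together. The change was 2.0-fold (1.00 ± 0.16, adjusted p = 0.0025). Endothelial markers were looked at beside it, since KLF2 is abundant in that cell type. The summed level of the 7 such markers found in the table was 56.8 to 141 CPM in control and 122 to 221 CPM with PDGF-BB. ERG, an ETS transcription factor, was at 50.5 CPM in control and 118 CPM with PDGF-BB on average (1.23 ± 0.30, adjusted p = 0.022). The receptor TIE1 averaged 5.18 and 7.32 CPM (0.49 ± 1.99, adjusted p = 0.93) and was called higher with the block (adjusted p = 0.02). The other means in control and with PDGF-BB were 11.2 and 13 CPM for PECAM1, 23.9 and 24.3 CPM for CDH5, 2.25 and 1.85 CPM for ESAM, 0.535 and 0.45 CPM for TEK, and 0.0629 and 0.0216 CPM for KDR. Of the 6 endothelial markers tested, 1 rose and 0 fell on groups alone, and 2 rose and 0 fell with the block. By replicate number, TIE1 averaged 0.0515, 16.1 and 2.6 CPM in numbers 1, 2 and 3, so its group means rest mostly on number 2. PECAM1, CDH5, TEK and ERG were also highest in number 2, and ESAM and KDR in number 3. KLF2 averaged 12.3, 11.3 and 12.4 CPM in numbers 1, 2 and 3. The part of other cell types in the change of KLF2 was not tested.

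KLF10 (ENSSSCG00000027480, chromosome 4, 34430132 to 34435990), first described as an early gene induced by TGF-beta, was at 102 (replicate 1), 89.8 (replicate 2) and 101 CPM (replicate 3) in control. With PDGF-BB it was at 166, 166 and 169 CPM. The groups were far apart, and the PDGF-BB libraries had a coefficient of variation of 1.08%. The rise was 1.71-fold (0.78 ± 0.10, adjusted p = 0.00098). KLF6 (ENSSSCG00000035212), an early-response activator, went from 83, 76.5 and 82.5 CPM to 130, 92.4 and 113 CPM. Its groups did not overlap, but by the test on groups alone the difference of 0.47 ± 0.17 fell short (adjusted p = 0.1). With the block KLF6 rose 1.37-fold (0.45 ± 0.07, adjusted p = 0.00017).

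KLF9 (ENSSSCG00000021646, chromosome 1, 223723613 to 223747661) was at 30.5, 21.2 and 25.9 CPM in control and at 10.6, 10.3 and 9.64 CPM with PDGF-BB. The PDGF-BB libraries lay close together although the control libraries did not, and the size of the fall differed between replicate numbers, from −1.04 in number 2 to −1.52 in number 1. It was 2.55-fold lower in the fit (−1.35 ± 0.18, adjusted p = 0.00096). KLF15 (ENSSSCG00000036742, chromosome 7, 53877813 to 53890558) is a regulator of glucose and amino acid metabolism. It was at 3.5, 2.58 and 4.53 CPM in control and at 1.3, 1.6 and 1.22 CPM with PDGF-BB. The groups did not overlap, and the fall was 2.56-fold (−1.36 ± 0.23, adjusted p = 0.0031). KLF15 rests on only 30 to 96 counts per library.

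KLF4 (ENSSSCG00000005437, chromosome 1, 248604817 to 248609574), the repressor of contractile genes, had 116, 75.3 and 114 CPM in control and 89.7, 55.5 and 86.8 CPM with PDGF-BB. The groups overlapped because replicate number 2 was low in both, yet the 3 same-numbered differences were nearly equal at −0.37, −0.44 and −0.39 in log2. On groups alone the change did not pass (−0.40 ± 0.31, adjusted p = 0.48). With the block KLF4 fell 1.32-fold (−0.40 ± 0.06, adjusted p = 1e-04), and without replicate number 2 it also passed on groups alone (−0.36, adjusted p = 0.01). KLF3 (ENSSSCG00000036488), the CtBP-dependent repressor, went from 33.2, 25.7 and 32.5 CPM to 26.9, 22.1 and 28.5 CPM. It was not called on groups alone (−0.24 ± 0.14, adjusted p = 0.35). KLF3 fell with the block (−0.23 ± 0.06, adjusted p = 0.0032), though not when replicate number 1 was left out of that fit (adjusted p = 0.073).

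KLF5 (ENSSSCG00000035101) was scarce, with 49 to 90 counts per library. Its level was 3.06, 2.44 and 2.97 CPM in control and 2.92, 1.6 and 1.71 CPM with PDGF-BB. The groups overlapped through replicate 1, where the 2 libraries differed by only −0.07 in log2. It was called lower only with the block (−0.46 ± 0.17, adjusted p = 0.037), and not in that fit without replicate number 2 (adjusted p = 0.15) or 3 (adjusted p = 0.3). KLF7 and KLF13 were not called with or without the block. KLF13 (ENSSSCG00000026006), an activator of chemokine transcription in T cells, had values of 20.4 to 29.2 CPM over all 12 libraries, and its change with PDGF-BB was 0.10 ± 0.14.

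**Figure D2:**
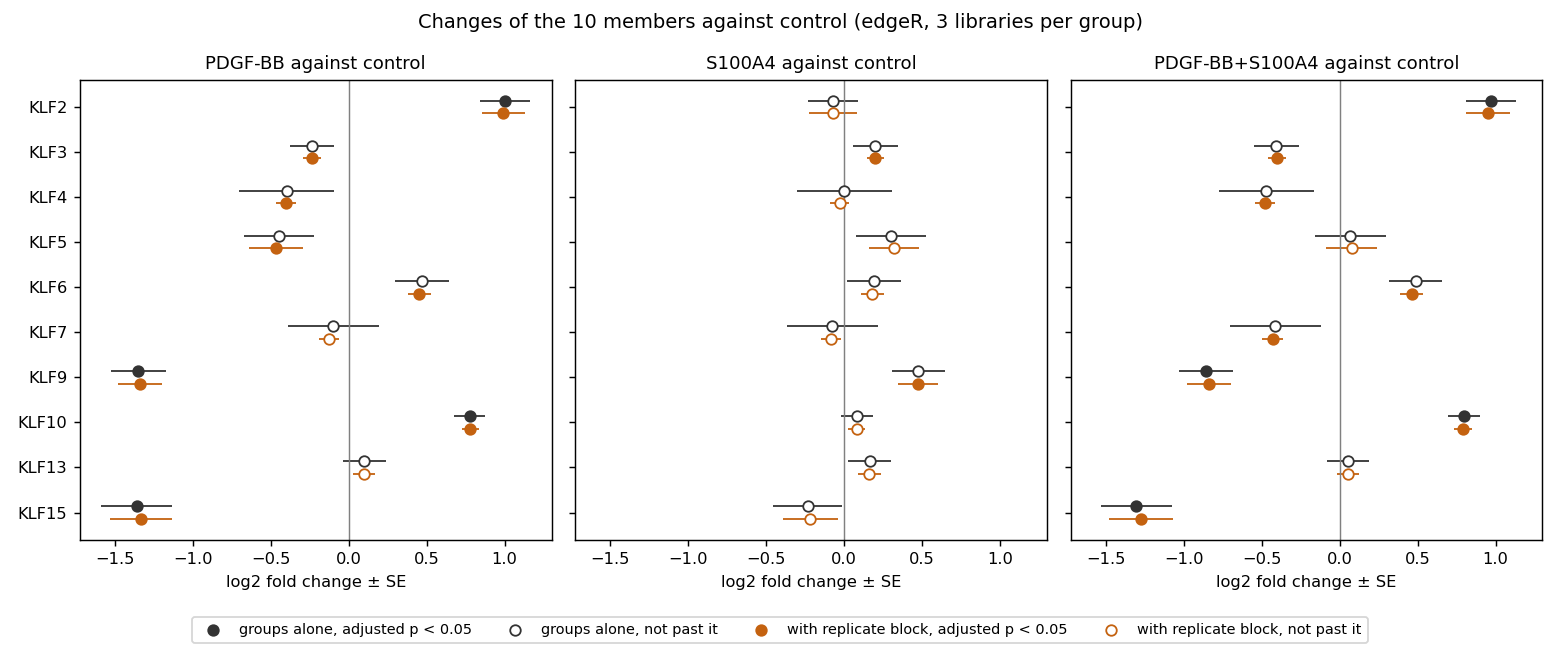
Log2 fold change ± SE of each member against control for PDGF-BB, S100A4 and the combination, with 3 libraries per group. Filled points passed an adjusted p of 0.05, and colour separates the fit on groups alone from that with the replicate block; estimates nearly coincide, while the SE of KLF4 fell from 0.31 to 0.06 for PDGF-BB.

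S100A4 alone changed none of the 10 members on groups alone, where it called 0.563% of all genes. By edgeR 1 member, KLF9, had an unadjusted p under 0.05, and DESeq2 and limma-voom also called 0. With the block KLF9 and KLF3 rose, 2 of 10 against 10.7% of all genes (6.46% higher and 4.28% lower). Pairs differed in 1 direction for 8 members and 47.8% of all genes. KLF9 was at 37.4, 27.4 and 43 CPM with S100A4, higher than the control library of its number in all 3 pairs, by 0.29, 0.37 and 0.73 in log2. The groups overlapped, since S100A4 replicate 2 lay below control replicate 1. The difference was 0.48 ± 0.17 on groups alone (adjusted p = 0.54) and 0.47 ± 0.13 with the block (adjusted p = 0.028), a 1.39-fold rise. In the block fit it did not pass without replicate number 1 (adjusted p = 0.055) or 3 (adjusted p = 0.29).

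KLF3 was at 37, 29.3 and 38.7 CPM with S100A4. It was higher than control in the 3 pairs by 0.16 to 0.25 in log2, and rose only with the block (0.20 ± 0.06, adjusted p = 0.032). That call was lost whichever replicate number was left out (adjusted p = 0.14, 0.068 and 0.23 without 1, 2 and 3). Without replicate number 2 the block fit instead called KLF6 (0.25, adjusted p = 0.0054) beside KLF9 (0.52, adjusted p = 0.0016). KLF5 was the single member whose S100A4 and control libraries did not overlap, at 3.56, 3.48 and 3.4 CPM, where non-overlap held for 9.72% of all genes. Its change did not pass (0.30 ± 0.22, block 0.32 ± 0.16, block adjusted p = 0.26). KLF2 (−0.07 ± 0.16) and KLF10 (0.08 ± 0.10), the members that PDGF-BB raised, had small values with S100A4 that did not pass with or without the block. KLF15, which PDGF-BB lowered, had −0.23 ± 0.22 and was lower in all 3 pairs, with log2 differences of −0.11, −0.04 and −0.47.

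With both proteins against control, 2 members rose and 2 fell on groups alone, 4 of 10 against 22% of all genes (13.2% higher and 8.75% lower). Of all calls 60.1% were higher, and 46.1% with upper-quartile scaling, under which KLF3 was called as well (adjusted p = 0.039). With the block 3 rose and 5 fell, 8 of 10 against 56.1% (27.5% higher and 28.6% lower). Groups did not overlap for 6 members and for 35.6% of all genes, and pairs differed in 1 direction for 8 members and 70.3%. This comparison shares its control libraries with that of PDGF-BB, so its values are set side by side and not counted as further support. KLF2 was at 18.2, 12.2 and 17.5 CPM, lowest in replicate 2, with a change of 0.97 ± 0.16 (adjusted p = 0.0019) beside 1.00 for PDGF-BB alone. KLF10 was at 173, 147 and 189 CPM (0.80 ± 0.10, adjusted p = 0.00048, beside 0.78). KLF15 was at 1.3, 1.51 and 1.46 CPM (−1.30 ± 0.23, adjusted p = 0.0027, beside −1.36). KLF9 was at 13, 15.7 and 14.1 CPM and fell by less, −0.86 ± 0.17 (adjusted p = 0.0059), beside −1.35.

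KLF6 was at 135, 85.3 and 119 CPM, again without overlap. Its difference of 0.49 ± 0.17 fell short on groups alone (adjusted p = 0.072). With the block KLF6 rose by 0.46 ± 0.07 (adjusted p = 0.00012). KLF4 stood at 85, 52.2 and 83.2 CPM (−0.47 ± 0.31, adjusted p = 0.33) and fell with the block (−0.48 ± 0.06, adjusted p = 1.8e-05). KLF3, at 24.8, 20.8 and 23.5 CPM, lay below every control library but was not called on groups alone (−0.40 ± 0.14, adjusted p = 0.073). It fell with the block (−0.40 ± 0.06, adjusted p = 4.1e-05). DESeq2 called KLF3 and KLF6 as well on groups alone, at adjusted p = 0.035 and 0.039. KLF7 (ENSSSCG00000029998), a widely expressed activator studied mostly in neurons, was at 63.9, 42.3 and 75.4 CPM, against 76.6, 65.1 and 99.9 CPM in control. Its groups overlapped, and it passed only with the block (−0.43 ± 0.07, adjusted p = 8.3e-05).

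Adding S100A4 to PDGF-BB, compared with PDGF-BB alone, changed 0 of 10 members on groups alone by edgeR, DESeq2 or limma-voom, where edgeR called 0.273% of all genes. By edgeR 2 members, KLF9 and KLF5, had an unadjusted p under 0.05. KLF9 was higher in all 3 pairs, by 0.30, 0.61 and 0.55 in log2, and its libraries did not overlap, as in 8.69% of all genes. The difference was 0.49 ± 0.17 (adjusted p = 0.71; block 0.50 ± 0.15, adjusted p = 0.066). It thus did not pass in either fit with all 12 libraries, and passed in the block fit without replicate number 2 (0.42, adjusted p = 0.035). KLF7 was lower in the 3 pairs, with differences of −0.25, −0.26 and −0.40, and was the 1 member called with the block (−0.30 ± 0.07, adjusted p = 0.011), against 7.14% of all genes (5.11% higher and 2.03% lower). Pairs differed in 1 direction for 5 members and 41.7% of all genes. The call of KLF7 did not hold in the block fit without replicate number 1 (adjusted p = 0.072) or 3 (adjusted p = 0.23). KLF5 differed by 0.52 ± 0.23 and was higher in all 3 pairs, but did not pass with the block (adjusted p = 0.076).

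**Figure D3:**
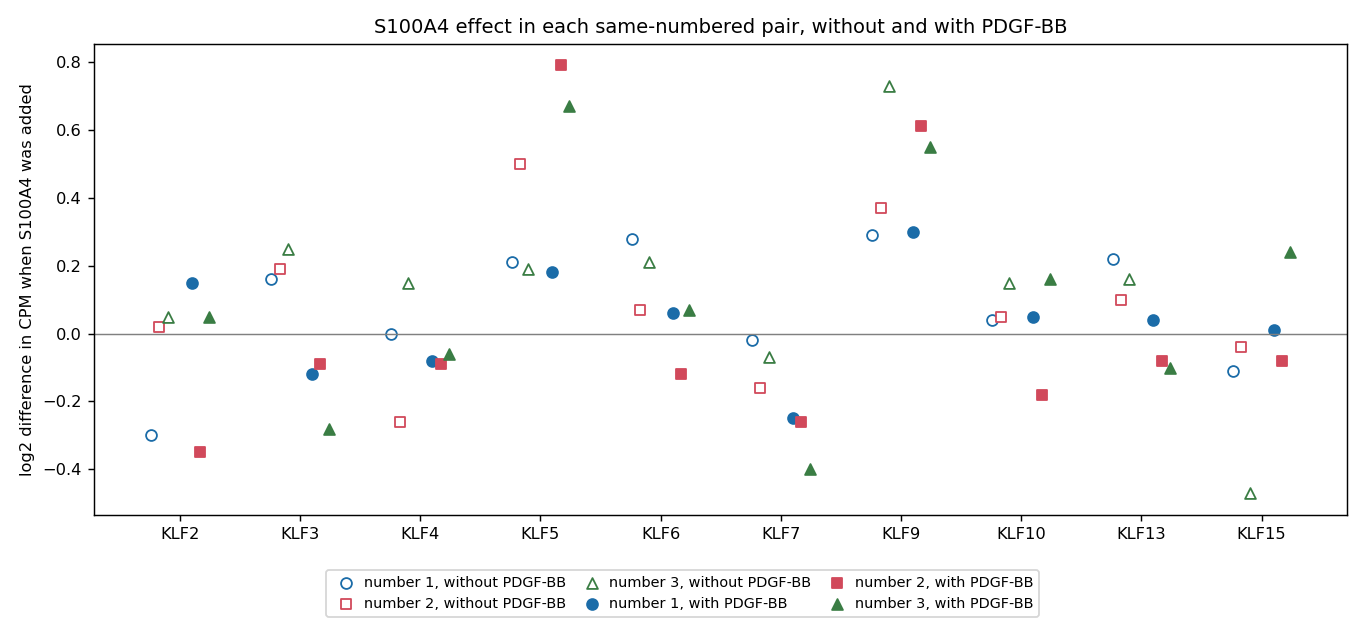
Log2 difference in CPM when S100A4 was added, in each same-numbered pair, for the 10 members: open symbols without PDGF-BB (S100A4 against control), filled symbols with it (both against PDGF-BB). All 6 values of KLF9 lie above 0, from 0.29 to 0.73, whereas those of KLF3 lie above 0 without PDGF-BB and below 0 with it.

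The interaction compares both S100A4 effects in log2, with PDGF-BB minus without. It was called for 0 of 10 members in edgeR, DESeq2 and limma-voom, and in edgeR with the block. The background was 0% of all genes on groups alone and 0.113% with the block. At an unadjusted p under 0.05 there were 0 members on groups alone and 2 with the block, KLF3 and KLF7. Estimates ran from −0.37 ± 0.20 for KLF3 to 0.29 ± 0.32 for KLF15. For KLF9 the estimate was 0.02 ± 0.24, since the S100A4 difference was 0.48 without PDGF-BB and 0.49 with it. For KLF3 the sign of the S100A4 difference was opposite in all pairs, but the test of that difference did not pass (block −0.36 ± 0.08, adjusted p = 0.11).

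Adding PDGF-BB to S100A4, compared with S100A4 alone, raised 2 members and lowered 3 on groups alone, 5 of 10 against 15% of all genes (9.45% higher and 5.51% lower). Of all calls 63.2% were higher, and 49.9% with upper-quartile scaling. With the block 3 rose and 5 fell, against 47.8% (24.9% higher and 22.9% lower). Non-overlap held for 6 members and 30% of all genes, and pairs in 1 direction for 9 members and 67.6%. These libraries are also those of the comparisons above. KLF2 rose by 1.04 ± 0.16 (adjusted p = 0.0023) and KLF10 by 0.71 ± 0.10 (adjusted p = 0.0016). KLF9 fell 2.51-fold (−1.33 ± 0.17, adjusted p = 0.00097) and KLF15 2.1-fold (−1.07 ± 0.23, adjusted p = 0.011). KLF3 fell 1.52-fold (−0.60 ± 0.14, adjusted p = 0.019). The call of KLF3 was lost without replicate 1 or 3 of S100A4 (adjusted p = 0.069 and 0.074) and without replicate 2 or 3 of the combination (adjusted p = 0.065 and 0.054), and held with the block (adjusted p = 1.4e-06). KLF4 (−0.45 ± 0.06), KLF7 (−0.34 ± 0.07) and KLF6 (0.28 ± 0.07) were called with the block only. KLF6 did not pass in that fit without replicate number 1 (adjusted p = 0.097) or 3 (adjusted p = 0.078).

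On groups alone the number of calls depended on which replicate number was kept. Without replicate 1 of all groups no member was called in the comparisons of PDGF-BB or the combination with control, while by edgeR 5 and 4 had an unadjusted p under 0.05, the shares called of all genes were 1.05% and 4.03%, and the estimates moved little (KLF2 1.01, KLF10 0.82, KLF9 −1.24 and KLF15 −1.32 with PDGF-BB). Without replicate 3, PDGF-BB changed 2 members and the combination 1, beside 3.02% and 7.95% of all genes. Without replicate 2 they changed 6 and 7, beside 17.4% and 27.2%. The shares over all genes thus fell and rose along with the members' counts. The 5 calls of the combination against S100A4 became 0 without replicate 1 or 3 (5 at an unadjusted p under 0.05 in both cases), where 0.0802% and 2.2% of all genes were called. With the block, 7 members were called with PDGF-BB and 8 with the combination whichever replicate number was left out, in fits that called 35.1% to 44.8% and 42.6% to 53.5% of all genes.

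The members differed in how far treatment and replicate number set their level. In log2 CPM over the 12 libraries, treatment group held 93.5% of the sum of squares of KLF9, 92.9% of KLF10, 90.4% of KLF2 and 89.1% of KLF15. Replicate number held 0.172% to 5.07% in those 4. It held 76.7% for KLF7, 70.3% for KLF4 and 66.7% for KLF13, and the median over all tested genes was 36.9% for treatment and 40.9% for replicate number. KLF4 averaged 102 CPM in number 1, 61.5 in number 2 and 103 in number 3, and KLF7 73, 54.1 and 92.4 CPM. The mRNAs of the contractile genes ACTA2 (15400, 6910 and 15900 CPM) and MYH11 (1140, 348 and 1520 CPM) were likewise lowest in number 2. Their part in the levels of KLF4 and KLF7 was not tested.

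**Figure D4:**
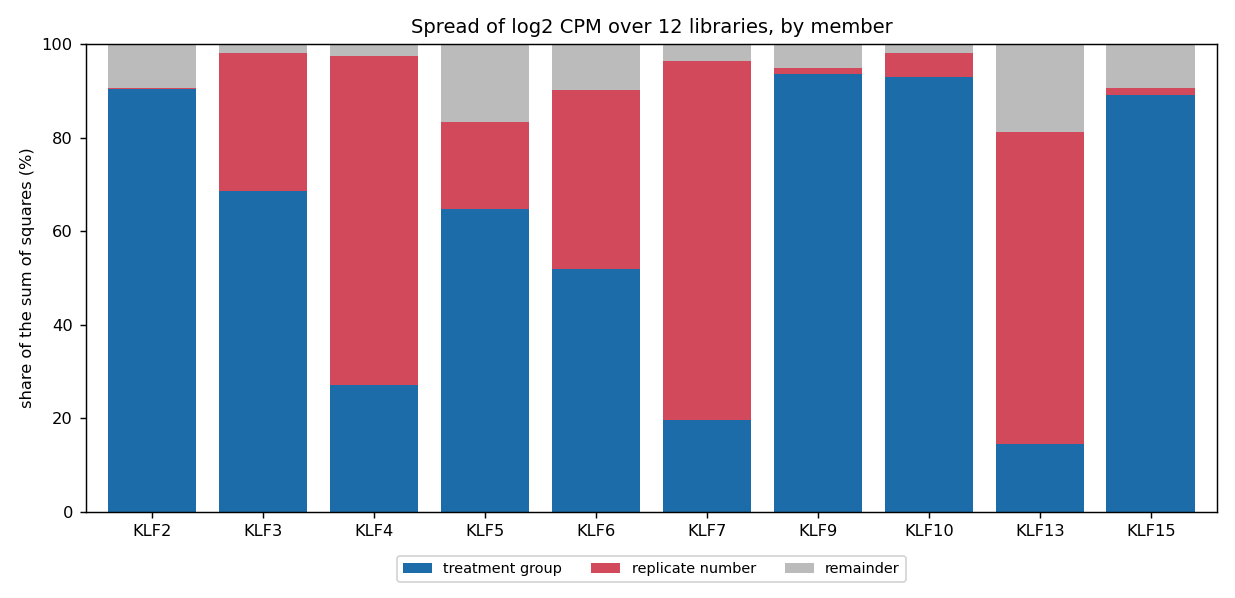
Share (%) of the sum of squares of log2 CPM over the 12 libraries held by treatment group, replicate number and the remainder, for each member. Treatment holds 89.1% or more for KLF2, KLF9, KLF10 and KLF15, and replicate number 66.7% or more for KLF4, KLF7 and KLF13.

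Most other genes of the family were absent from the table, too scarce to test or not called on groups alone. Counts in this list and those below stand beside these shares of all tested genes. With PDGF-BB 9.09% were higher and 5.62% lower on groups alone, and 24.3% and 24.5% with the block. With S100A4 0.563% were called on groups alone, and 6.46% were higher and 4.28% lower with the block. With the combination 13.2% were higher and 8.75% lower on groups alone, and 27.5% and 28.6% with the block. Of 17 further KLF and SP genes, 15 were in the table and 8 were tested, with 1 higher and 0 lower with PDGF-BB (2 and 2 with the block; median −0.10, beside −0.02 over all genes). KLF16, another SIN3-binding factor, rose by 0.48 ± 0.10 (adjusted p = 0.0089). KLF11, the close relative of KLF10, had −0.66 ± 0.27 with PDGF-BB (adjusted p = 0.14, block adjusted p = 5.6e-05) and fell with the combination (−0.85 ± 0.27, adjusted p = 0.046). KLF12 had 0.44 ± 0.18 (adjusted p = 0.15, block adjusted p = 0.012). Thus, of the factors named here as SIN3-binding, KLF10 and KLF16 were called higher, KLF9 lower and KLF13 not at all with PDGF-BB. KLF11, the relative of KLF10, was called lower with PDGF-BB with the block only. With S100A4 none of the 8 was called, also with the block. With the combination 1 rose and 1 fell on groups alone (2 and 4 with the block). SP1, the ubiquitous GC-box factor, had 0.06 ± 0.11 with S100A4 (adjusted p = 1).

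Of 11 tested cofactors of these proteins, 0 rose and 2 fell with PDGF-BB (4 and 5 with the block; median −0.03). They were the corepressor SIN3B (−0.37 ± 0.08, adjusted p = 0.013) and the acetyltransferase CREBBP (−0.36 ± 0.10, adjusted p = 0.04). The deacetylase HDAC1 rose with the combination (0.55 ± 0.09, adjusted p = 0.0016). Among 17 upstream regulators and ubiquitin ligases 3 rose and 3 fell with PDGF-BB (6 and 10 with the block; median −0.21), and with the combination 3 rose and 6 fell (5 and 9 with the block). The ubiquitin ligase SMURF1 rose with PDGF-BB (0.67 ± 0.07, adjusted p = 0.00026), and it was the 1 member of this list called with S100A4 on groups alone (0.41 ± 0.07, adjusted p = 0.028). Serum response factor SRF rose with PDGF-BB (0.54 ± 0.11, adjusted p = 0.0086). The forkhead factors FOXO3 (−0.73 ± 0.16, adjusted p = 0.011) and FOXO4 (−0.73 ± 0.17, adjusted p = 0.019) fell.

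Genes known as glucocorticoid targets, a class to which KLF9 and KLF15 belong, did not move one way with PDGF-BB. Of 9 tested, 1 rose and 2 fell (4 and 2 with the block; median 0.02). CEBPD, a C/EBP transcription factor, fell (−1.96 ± 0.40, adjusted p = 0.0087), as did the stress-response gene SESN1 (−1.39 ± 0.21, adjusted p = 0.002). ERRFI1, an inhibitor of EGF receptor signalling, rose (3.30 ± 0.30, adjusted p = 0.00017). With S100A4, CEBPD rose with the block only (0.99 ± 0.16, adjusted p = 0.0012).

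Of 11 contractile genes of smooth muscle, the class that KLF4 is known to repress, 0 rose and 1 fell with PDGF-BB (1 and 7 with the block; median −0.25), beside the 1.32-fold fall of KLF4 itself with the block. The gene that fell on groups alone was SMTN, smoothelin (−0.69 ± 0.14, adjusted p = 0.01). MYOCD, the coactivator myocardin, had −0.59 ± 0.37 (adjusted p = 0.37, block adjusted p = 0.004). ACTA2, smooth muscle actin, had −0.02 ± 0.48 (adjusted p = 0.99, block adjusted p = 0.44). MYH11 had −0.44 ± 0.77 (adjusted p = 0.81) and was called lower with the block (−0.51 ± 0.07, adjusted p = 4.6e-05). With S100A4 none of the 11 passed on groups alone. With the block 6 fell (median −0.17), where 4.28% of all genes were called lower. SMTN (−0.45 ± 0.05, block adjusted p = 4.6e-05) and ACTA2 (−0.18 ± 0.05, block adjusted p = 0.033) were among the 6. MYH11 was not (block adjusted p = 0.56), and KLF4 had −0.03 ± 0.06 in that fit. With the combination 0 rose and 2 fell (1 and 6 with the block). These 2 were SMTN (−0.83 ± 0.14, adjusted p = 0.0027) and the tropomyosin TPM1 (−0.31 ± 0.08, adjusted p = 0.025). MYH11 fell with the block only (−0.36 ± 0.07, adjusted p = 0.00064), and ACTA2 did not pass (block adjusted p = 0.071). Of 11 tested genes that vascular studies name as KLF targets, 3 rose and 1 fell with PDGF-BB (7 and 3 with the block; median 0.35). The cyclin CCND1 (0.92 ± 0.09) and the early growth response factor EGR1 (1.98 ± 0.31) were among those that rose. The cell cycle inhibitor CDKN1B fell (−1.59 ± 0.13, adjusted p = 1e-04). With S100A4 none of these 11 targets passed on groups alone, and 0 rose and 2 fell with the block, namely CCND1 (−0.21, adjusted p = 0.015) and CDKN1B (−0.36, adjusted p = 0.022). With the combination CCND1 rose by 0.57 ± 0.09 (adjusted p = 0.0015), beside 0.92 with PDGF-BB alone.

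Immediate early factors, to which some KLF genes are often added, were read from a list without KLF genes, which shares EGR1 and SRF with the lists above. Of 16 tested, 9 rose and 1 fell with PDGF-BB (13 and 1 with the block; median 1.09). MAFF (1.75 ± 0.20), IER2 (1.46 ± 0.21) and MYC (1.25 ± 0.13) were among those that rose, and FOSL2 fell (−0.87 ± 0.11). With S100A4, MAFF alone passed on groups alone (1.09 ± 0.20, adjusted p = 0.045). With the block 7 rose and 2 fell, beside 6.46% and 4.28% of all genes.

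Genes with the most similar profiles were sought for the 4 members called against control, among 9417 other genes with a symbol and a mean of at least 1 log2 CPM. Profiles were log2 CPM over the 12 libraries centred within replicate number, and the libraries share their scaling, so Pearson's r is a description. For KLF2 the closest were ZNF623, SLCO4A1 and CCDC97 (each r = 0.988). For KLF9 they were CYP1B1 (0.992), GAB1 (0.982) and GABARAPL1 (0.979). For KLF10 they were TMEM201 (0.991), NUP160 (0.99) and IL10RA (0.989), and for KLF15 GIGYF1 (0.988), LRIG2 (0.986) and TLE3 (0.984). Among the members themselves the most opposed pair was KLF2 and KLF15, at r = −0.957.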

How the data were processed

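The authors deposited raw read counts per gene as whole numbers, 1 column per library, for 21153 Ensembl identifiers. Per the submitters' processing notes the tools were CASAVA 1.8.2, STAR 2.4 and featureCounts 1.4.6, with build Sscrofa11.1. The annotation release, strand setting and treatment of multiply mapped reads were not given in the sources used here, so counts shared with overlapping or antisense genes are uncertain. Single-end reads were 100 nt long, per the labels. Symbols matched 14572 identifiers. Gene positions are RefSeq's for Sscrofa11.1, matched by symbol. No sequence was used.

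Genes were kept with filterByExpr of edgeR 4.0.16 (minimum count 10, by group) and scaled by TMM. All 12 libraries entered 1 quasi-likelihood fit with 4 group means, and 6 comparisons were tested, two-sided, with Benjamini-Hochberg adjustment over 12444 genes and a threshold of 0.05. SE is the absolute log2 fold change divided by the square root of F. Log2 CPM used a prior count of 2. R was 4.3.3. Both fits were run on simulated counts. For the fit on groups alone these had no effect of replicate number and less spread than the data. They do not show how that fit performs on libraries like these.

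Replicate numbers pair the samples from the data, not the labels: deviations from group means correlated at 0.746 to 0.908 over 18 same-numbered pairs and at −0.676 to 0.136 over 36 others. The deviations of a group cancel out for each gene, so the low values of the 36 follow in part from the high values of the 18. The block lowered the common biological coefficient of variation from 27.2% to 5.14%. Libraries of 1 group differed beyond sampling noise, so none was merged.

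Alternatives were DESeq2 1.42.0, limma-voom (limma 3.58.1), RLE and upper-quartile scaling, no filter, a strict filter (at least 1 CPM in 3 or more libraries, mean at least 5 CPM), the compared groups alone, the block, and left-out libraries. The 10 members were always named. From each list up to 4 genes could be named in each comparison with control, those of smallest adjusted p, with ACTA2, MYH11 and MYOCD, and the 3 genes with the most similar profile to each called member. ERG, PECAM1, CDH5, KDR, TIE1, TEK, ESAM, TAGLN, LUM, TCF21 and PTPRC were named as markers after their values were seen. Members and lists were chosen with earlier results of these data known. A gene of the target list is counted but not reported here by name.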

Additional observations from a re-analysis of the deposited data

Results flagged for a closer look

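KLF3 was singled out because S100A4 was associated with opposite differences without and with PDGF-BB. In same-numbered pairs KLF3 was higher with S100A4 than in control by 0.16, 0.19 and 0.25 in log2, and with both proteins the differences from PDGF-BB alone were −0.12, −0.09 and −0.28. The difference between these effects was −0.37 ± 0.20 on groups alone (edgeR adjusted p = 1) and −0.36 ± 0.08 with the replicate block (adjusted p = 0.11), so it did not pass in either fit. In the block fit without replicate number 1, 2 or 3 the adjusted p was 0.66, 0.055 and 0.89.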

How the results depend on the processing

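The counts of called members stayed within 1.5 times of the reported ones under DESeq2, limma-voom, RLE and upper-quartile scaling, both filters and the compared groups alone. The strict filter removed KLF5 and KLF15. With the replicate block, which uses the pairing by number, the count rose from 4 to 8 for PDGF-BB against control, from 0 to 2 for S100A4, from 4 to 8 for the combination, from 0 to 1 for the combination against PDGF-BB and from 5 to 8 for the combination against S100A4. These are 14 member values, and the block changed no other member call. The count stayed at 0 for the interaction (2 at an unadjusted p under 0.05). Over all genes the block moved the number called from 1830 to 6075 with PDGF-BB, from 70 to 1336 with S100A4, from 2732 to 6982 with the combination, from 34 to 888 and from 1862 to 5948 for the combination against PDGF-BB and against S100A4, and from 0 to 14 for the interaction. DESeq2 called 205 genes with S100A4 and 123 for the combination against PDGF-BB. In the block fit without 1 replicate number, 7 members were called with PDGF-BB and 8 with the combination in all 3 cases, beside 35.1% to 44.8% and 42.6% to 53.5% of all genes. Without number 2 that fit called 2 with S100A4 (KLF9 and KLF6, not KLF3), 2 for the combination against PDGF-BB and 8 against S100A4. Without number 1, and likewise without number 3, it called 0, 0 and 7. Of all genes it called 8.56%, 10.6% and 47.9% in these comparisons without number 2. The shares were 4.91%, 3.04% and 32.1% without number 1, and 4.88%, 2.62% and 34% without number 3.

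Leaving out 1 replicate number of all groups or 1 library without the block gave 0 to 6 called members with PDGF-BB, 0 to 7 with the combination and 0 to 7 for the combination against S100A4. The counts of 0 came without replicate 1, or for the last comparison without 1 or 3, where edgeR had 5, 4 and 5 members at an unadjusted p under 0.05. DESeq2 was not run on these. Of 60 member values, the 34 with an unadjusted p under 0.05 in either fit were followed. The only one to change sign was the interaction of KLF7, from −0.46 to 0.012 over left-out libraries, which was not called in any fit. Upper-quartile scaling lowered the share of higher genes among all calls with PDGF-BB from 61.8% to 49% and with the combination from 60.1% to 46.1%, without changing the direction of a member called. KLF5 and KLF15, at 30 to 96 counts per library, are the members that depth limits most. The cause of the lost calls was not tested.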
